A study of Rattus norvegicus with 80 samples.

Results

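Whole mammary pads of wildtype rats were compared with mature adipocytes of wildtype rats, to describe what the intact gland holds beyond its main cell type. The members were chosen by their labels alone: 6 libraries labelled as wildtype pads and 3 labelled as wildtype adipocytes, 9 of the 80 libraries of the series. The rest of the series holds cultured mammary epithelial cells (MECs) and fibroblasts of wildtype rats, the same 4 tissues from 3 lines with a mutated Nf1 gene that the labels call IF, PS and IFPS, and mammary tumors of those lines. The labels give the pads and adipocytes used here the genotype wildtype and no treatment, and name no strain, sex or age. The pads carry the title numbers 1 to 3 and 13 to 15, written below as pads 1 to 3 and pads 4 to 6, and the labels do not say what separates these sets. Nothing in the labels says that replicates came from separate animals, so p-values measure only the spread between these libraries. RNA of the pads came from homogenized fresh tissue and RNA of the adipocytes from mature adipocytes, in both cases extracted with Trizol. The series describes its normal samples as flow sorted, and how the adipocytes were separated from the pad is not given in the sources used here.

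The mammary pad of rodents is a fat depot through which a branching tree of epithelial ducts grows. Its bulk is adipocytes, large cells that store triglyceride in a single droplet. Around the ducts and between the fat cells lie fibroblasts that lay down the collagen-rich matrix, blood and lymph vessels, nerves and resident immune cells. A whole pad library mixes the RNA of all of these, whereas an adipocyte library should hold mostly fat cell RNA. In such bulk samples, fewer cells of a type and less RNA per cell cannot be told apart.

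The 6 pad libraries held 24178725 to 31579464 counts and the 3 adipocyte libraries 27600634 to 31232279. Of 32883 Ensembl gene identifiers, 6365 had no count in any of the 80 libraries. At 1 common total, 18519 to 19495 identifiers had a count in each pad and 17187 to 17664 in each adipocyte library. The files do not pair identifiers with gene names, and the reference table used here matched none of them. The levels of Nf1 and of textbook markers are therefore not analysed here, and the labelled tissues could not be checked against their defining genes. In place of markers, the pads and adipocytes were read through gene sets built from the isolated cells and pads of the PS and IFPS lines, which share no library with the wildtype comparison.

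Most genes differed between pads and adipocytes. Of 15826 genes tested with edgeR's quasi-likelihood test, 11868 (75%) passed an adjusted p-value of 0.05 (Benjamini-Hochberg), 6457 (40.8%) higher in pads and 5411 (34.2%) lower. The differences were unequal in size. Among the genes higher in pads, 3017 (19.1% of those tested) were at least 4-fold higher, 1341 were at least 16-fold higher and 472 at least 64-fold higher. Among those lower in pads, 814 (5.14%) were at least 4-fold lower, 208 at least 16-fold lower and 83 at least 64-fold lower. All 6 pads lay outside the range of all 3 adipocyte libraries for 2765 of the 3017 genes and for 802 of the 814, against 10168 (64.2%) of all genes tested. This separation enters the test that chose the 2 groups of genes, so it describes them and adds no support.

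These counts are relative to the TMM scaling, which fixes the balance of higher and lower genes from the genes that differ least. With library totals alone the median of all genes moved up by 0.477 on the log2 scale. The genes called were then 8969 higher and 2872 lower, 75.7% higher against 54.4% under TMM. The genes at least 4-fold apart were 3753 higher and 571 lower. Against pads 1 to 3 alone, 3019 genes were at least 4-fold higher and 891 lower, and against pads 4 to 6 alone 2400 and 770.

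The genes that stood higher in pads were mostly rare transcripts, and those that stood lower were abundant in adipocytes. The median level of the 3017 genes was 5.5 CPM in pads (the counts of a gene relative to a library total scaled by TMM) and 0.298 CPM in adipocytes. The median level of the 814 genes was 103 CPM in adipocytes and 10.6 CPM in pads. As a share of all counts, the 3017 genes made up 15.25, 13.34 and 15.93% of pads 1 to 3, 15.57, 15.23 and 17.73% of pads 4 to 6, and 0.5904, 0.7816 and 0.7747% of the adipocytes. The 814 genes made up 3.256, 3.285 and 3.201% of pads 1 to 3, 3.045, 3.159 and 3.14% of pads 4 to 6, and 25.82, 22.02 and 21.65% of the adipocytes. The genes were chosen on these libraries, so the gap in their summed shares follows from the choice and only its size is of use.

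The pad share was concentrated in few genes. The 2 most abundant of the 3017 genes took 3.78 to 8.09% of the counts of a pad and 0.0786 to 0.111% of those of an adipocyte library, and the 100 most abundant took 7.98 to 12.9% against 0.322 to 0.449%. On the adipocyte side the counts were spread more evenly. The 2 most abundant of the 814 genes took 1.09 to 2.34% of the adipocyte counts and 0.0816 to 0.184% of the pad counts, and the 100 most abundant took 13.6 to 17% against 1.57 to 1.69%. Of those 100 genes, 67 belonged to the adipocyte set defined below, which held 42.9% of all 814.

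**Figure D1:**
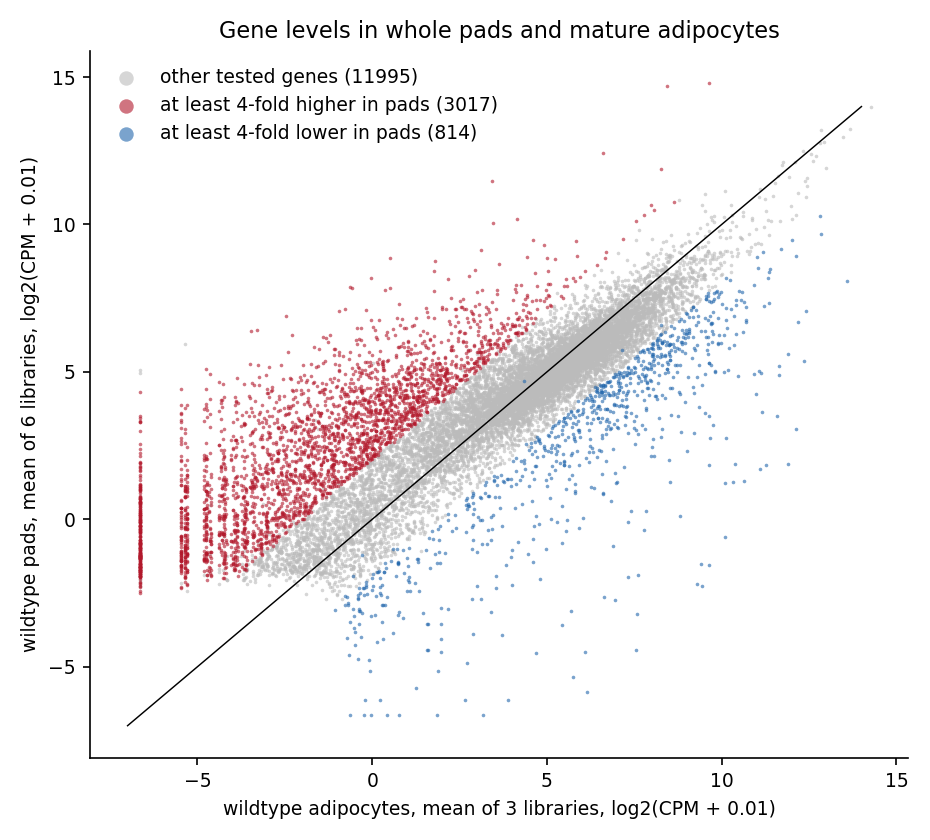
Mean level in 6 wildtype pads against mean level in 3 wildtype adipocyte libraries, 1 point per gene tested, both axes in CPM on a log scale. The 3017 genes at least 4-fold higher in pads reach down to the lowest adipocyte levels, while the 814 genes at least 4-fold lower sit mostly at high adipocyte levels.

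Gene sets that stand for the other cells of the gland were built without any wildtype library. The MEC set holds 533 genes that were at least 4-fold higher in PS and IFPS MECs than in fibroblasts and adipocytes of those lines, at 5 CPM or more and with no overlap of the 6 libraries of each type. The fibroblast set (213 genes) and the adipocyte set (765 genes) follow the same rule for their own cells. The MECs and fibroblasts had been grown in culture and the adipocytes had not, so the sets carry that difference too. Each set was defined against the other isolated types only, so it may also hold genes of pad cells that were not isolated. The MEC and fibroblast rules took genes low in adipocytes, and the adipocyte rule took genes high in them. An excess of members higher or lower in wildtype pads thus follows in part from the rules, and the counts describe the sets. A pad-only set holds 64 genes at 1 CPM or more in all 12 pads of those lines and under 0.5 CPM in all 18 libraries of isolated cells.

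Genes of the MEC set, chosen as low in PS and IFPS adipocytes, were far higher in wildtype pads than in wildtype adipocytes. Of 511 members that passed the filter on low counts, 469 (91.8%) were higher in pads and 12 lower, beside 40.8% and 34.2% of all genes, and 407 were at least 4-fold higher. The median difference of the 511 members was 3.90 on the log2 scale (quartiles 2.27 and 5.42), beside 0.12 over all genes. Their median level was 14.8 CPM in pads, 0.806 CPM in adipocytes and 22.7 CPM in wildtype MECs. On this median the pads sat closer to the cultured epithelium than to the fat cells. How much of the pad level came from epithelium was not tested. In 7 members all 3 adipocyte libraries had no count. Taken as ratios of mean levels in place of fitted values, with those 7 at the limit that 3 counts over the group allow, the median was 4.02 on the log2 scale.

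As a share of all counts the MEC set took 3.805, 2.763 and 2.522% of pads 1 to 3, 1.614, 2.262 and 3.576% of pads 4 to 6, and 0.2134, 0.2747 and 0.2825% of the adipocytes. The lowest pad was thus above the highest adipocyte library. In wildtype MECs the share averaged 4.414% and in wildtype fibroblasts 0.2488%. The rule took genes low in fibroblasts, so that low share follows from it and sets no level for other cells of the pad.

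Genes of the fibroblast set, likewise chosen as low in PS and IFPS adipocytes, were also higher in pads, by less. Of 209 members tested, 164 (78.5%) were higher, 115 (55%) at least 4-fold, and 19 were lower, beside 40.8%, 19.1% and 34.2% of all genes. The median difference was 2.31 on the log2 scale (quartiles 0.95 and 3.93), with median levels of 13.9 CPM in pads, 2.52 CPM in adipocytes and 56.7 CPM in wildtype fibroblasts. The set took 3.468, 3.235 and 4.508% of the counts of pads 1 to 3 and 6.006, 5.293 and 5.435% of those of pads 4 to 6. In the adipocytes it took 0.4627, 0.5288 and 0.5591%. Pads 4 to 6 lay above pads 1 to 3 in this share. By comparison, wildtype fibroblasts had a mean of 12.61% and wildtype MECs 2.504%.

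Pad-only genes were low in wildtype adipocytes too. All 64 members were tested and all 64 were higher in wildtype pads, 62 at least 4-fold. A low-count filter keeps such genes through the pads alone, so this count describes the set and is no support for it. Their median level was 5.3 CPM in wildtype pads, 0.14 CPM in wildtype adipocytes, 0.0205 CPM in wildtype MECs and 0.0145 CPM in wildtype fibroblasts. In sum they took 0.08713, 0.09896 and 0.1001% of the counts of pads 1 to 3, 0.04323, 0.04462 and 0.07654% of those of pads 4 to 6, and 0.000918, 0.001612 and 0.002132% of those of the adipocytes. All pads were above all adipocyte libraries, and pads 1 to 3 were above pads 4 to 6.

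**Figure D2:**
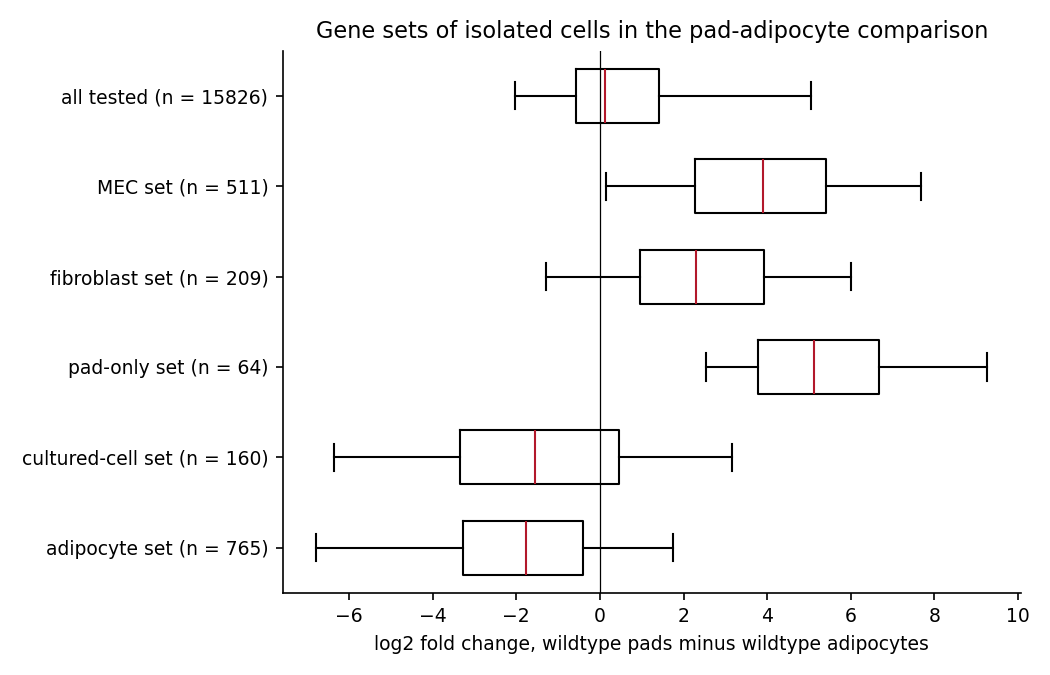
Log2 difference of wildtype pads against adipocytes for the tested members of each gene set and for all genes tested. The MEC set (median 3.90), the fibroblast set (2.31) and the pad-only set (5.11) lie above all genes (0.12), and the adipocyte set (-1.78) and the cultured-cell set (-1.56) lie below.

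The sets account for a small part of the list of 3017 genes. The MEC set held 407 (13.5%) of them, the fibroblast set 115 (3.81%), the pad-only set 62 (2.06%) and the adipocyte set 29, and 2387 (79.1%) were in none of the sets. Seen from the sets, the list held 79.7% of tested MEC-set members, 55% of the fibroblast set and 96.9% of the pad-only set. It held 3.79% of the adipocyte set and 19.1% of all genes tested. A looser reading asked in which isolated cell type of the PS and IFPS lines a gene was highest. Adipocytes were highest for 27 of the 3017 genes, a low number that the choice of genes far below pads in adipocytes all but fixed. With adipocyte-highest genes set aside on both sides, MECs were highest for 1328 genes (44.4%, beside 45.3% of all genes tested) and fibroblasts for 670 (22.4%, beside 43.3%). For the remaining 992 genes (33.2%, beside 11.5%), no isolated cell type reached 25% of the wildtype pad level. The list was chosen for its high pad levels, so these shares describe it. The share with MECs highest was close to that of all genes, with the genes that no type reached kept in the total. Between the 2 cultured types, MECs led by 1328 to 670 in the list and by 4566 to 4364 over all genes.

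Of the 15826 genes tested, 254 had no count in the 3 adipocyte libraries and 7 had none in the 6 pads. Fewer genes met a stricter rule on the pads. At least 10 counts in each of the 6 pads and 0 counts in each of the 3 adipocyte libraries were found for 53 genes, and for 68 after all libraries were thinned to 1 total. The reverse, at least 10 counts in each adipocyte library and 0 in each pad, held for 7 genes and for 6 after thinning. More pads than adipocyte libraries had to be at 0 for the reverse. With 3 pads in place of 6 the reverse held for 9 genes against pads 1 to 3 and for 21 against pads 4 to 6.

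**Figure D3:**
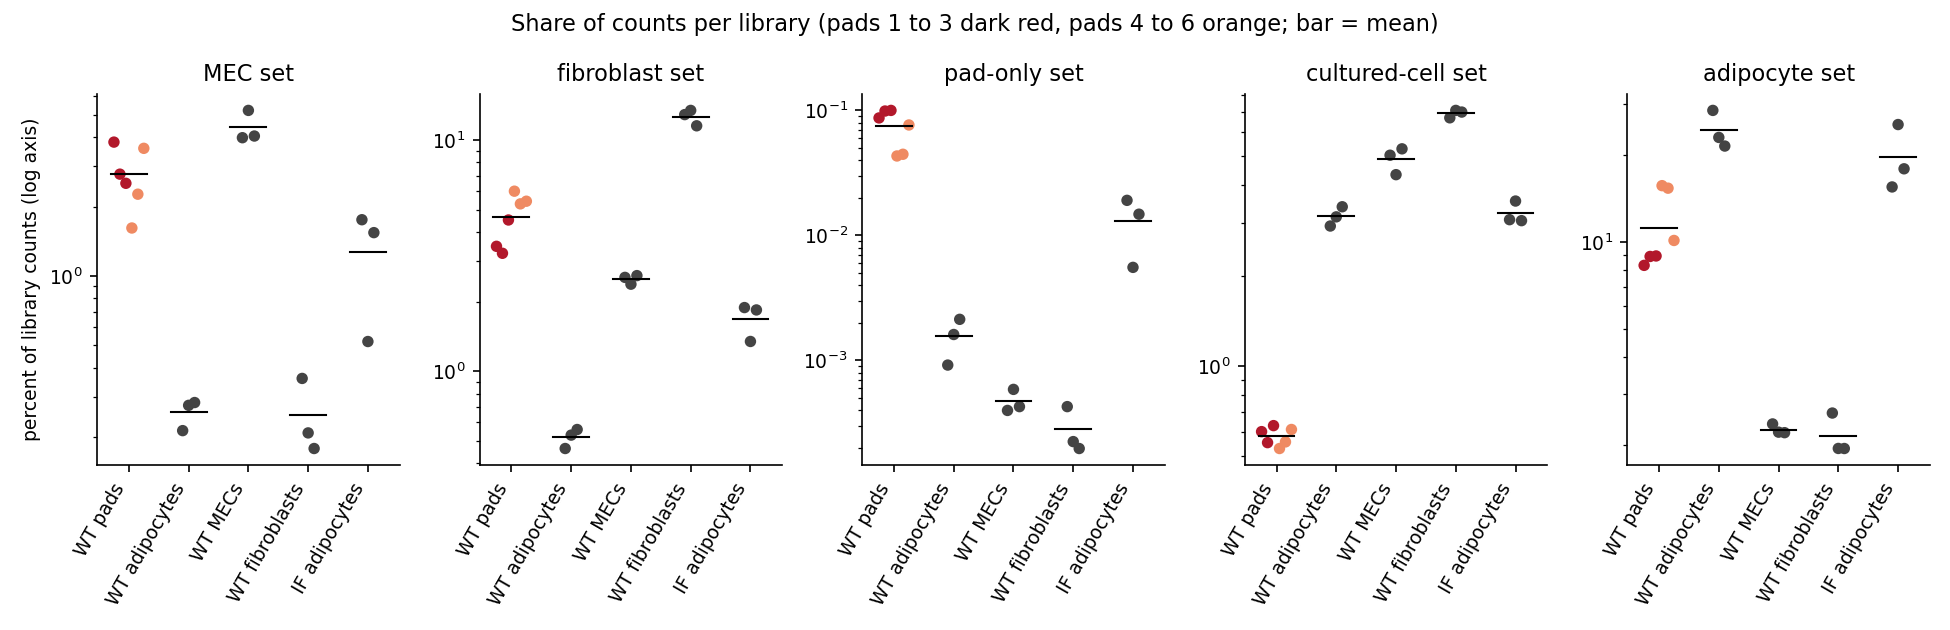
Share of all counts taken by each gene set in each wildtype library, in percent on a log axis, 1 point per library. The MEC, fibroblast and pad-only sets are higher in all 6 pads than in all 3 adipocyte libraries, and the adipocyte set is lower in all 6 pads.

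Genes of the adipocyte set, chosen as high in PS and IFPS adipocytes, were lower in pads than in isolated adipocytes, though far from lost. Of 765 members of the adipocyte set, 547 (71.5%) were lower in pads, beside 34.2% of all genes, 349 were at least 4-fold lower and 84 (11%) were higher. The median difference was -1.78 on the log2 scale (quartiles -3.27 and -0.40), with median levels of 27.5 CPM in pads and 87.1 CPM in adipocytes. In wildtype MECs and fibroblasts the medians were 4.11 and 3.66 CPM. The set took 8.304, 8.912 and 8.948% of the counts of pads 1 to 3, 15.64, 15.33 and 10.12% of those of pads 4 to 6, and 28.43, 22.94 and 21.42% of those of the adipocytes. All pads were below all adipocyte libraries, and pads 1 to 3 were below pads 4 to 6.

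The adipocyte set did not move as 1 block. Of its 765 members, 196 (25.6%) differed by less than 2-fold between pads and adipocytes, beside 55.5% of all genes. At least 4-fold higher in pads were 29 (3.79%), beside 19.1% of all genes. Both shares were thus below those of all genes. Of the 100 most abundant genes that were at least 4-fold higher in pads, 12 belonged to the adipocyte set, 22 to the MEC set and 14 to the fibroblast set. Of all 3017 such genes, these sets held 0.961%, 13.5% and 3.81%. The set was defined against cultured cells only, so its rule did not set adipocyte genes apart from genes of other uncultured cells.

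Many genes that were higher in cultured cells than in pads were also higher in adipocytes than in pads. A cultured-cell set of 162 genes was defined as at least 4-fold higher in both MECs and fibroblasts of the PS and IFPS lines than in their pads. Adipocytes played no part in that rule, but low levels in pads did. An excess of members lower in wildtype pads thus follows in part from the choice, and the counts describe the set. Of 160 members tested, 103 (64.4%) were lower in wildtype pads than in wildtype adipocytes, 72 (45%) at least 4-fold, and 34 (21.3%) were higher, beside 34.2%, 5.14% and 40.8% of all genes. The median difference was -1.56 on the log2 scale (quartiles -3.35 and 0.45). Median levels were 9.49 CPM in pads, 41.8 CPM in adipocytes, 93.8 CPM in wildtype MECs and 94.3 CPM in wildtype fibroblasts. The set took 0.5304 to 0.6323% of the counts of the 6 pads and 2.925, 3.138 and 3.391% of those of the adipocytes. It shared 11 genes with the adipocyte set, 10 with the fibroblast set and 3 with the MEC set.

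Genes abundant in isolated adipocytes were also read by the part of that level found in pads. Of 8807 genes at 10 CPM or more in wildtype adipocytes, 629 (7.14%) were in pads at under 25% of that level, 246 (2.79%) at under 10%, 72 at under 2% and 45 (0.511%) at under 1%. Of the 45 genes, 40 were under 1% in pads 1 to 3 and in pads 4 to 6 taken separately. Among the 45 were 39 genes of the adipocyte set, 7 of the cultured-cell set and 1 of the MEC set. Among the 246 genes under 10% were 174 of the adipocyte set and 38 of the cultured-cell set. Of all 8807 genes, these sets held 686 (7.79%, adipocyte set), 102 (1.16%, cultured-cell set) and 48 (0.545%, MEC set).

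Without gene names, 4 identifiers stand for the extremes: the 2 with the largest difference in each direction among genes at 10 CPM or more in the higher group and with no overlap of the groups. They were chosen for these differences, which are given as a description. ENSRNOG00000027466 was measured at 29.4, 36.8 and 41 CPM in pads 1 to 3 and at 0.178, 0.68 and 10.3 CPM in pads 4 to 6, with no count in the 3 adipocyte libraries. The pads themselves differed widely, with pads 4 and 5 near 0. The mean of the pads was 19.7 ± 18.3 CPM (SD, n = 6), at least 466-fold higher than the limit of 0.0423 CPM that 3 counts over the adipocyte group allow. The fitted log2 difference was 11.39 ± 2.52 (SE) with an adjusted p of 0.00486 by edgeR. Against a group without counts the fitted value is no bound, and it was 9.80 without pad 6 and 13.09 with pads 1 to 3 alone. The gene had 1 count over the 3 wildtype MEC libraries and none in wildtype fibroblasts.

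ENSRNOG00000006293 was measured at 18.8, 9.39 and 11.1 CPM in pads 1 to 3, at 5.43, 10.3 and 13.3 CPM in pads 4 to 6 and with no count in the adipocytes. Every pad was well above 0, and the pad mean of 11.4 ± 4.47 CPM (SD, n = 6) was at least 269-fold higher than the same limit. The fitted log2 difference was 11.34 ± 0.92 (SE, edgeR adjusted p = 2.77e-05), and 10.47 with DESeq2. Wildtype MECs held the gene at 1.11, 6.57 and 2.13 CPM, below all pads except that the second MEC library lay above pad 4, and wildtype fibroblasts had no count.

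In the other direction, ENSRNOG00000002460 was measured at 49.9, 101 and 62.2 CPM in the adipocytes. It had 1 count in pad 4 (0.0445 CPM) and 0 counts in the other 5 pads. The pooled adipocyte level was 13300-fold above that of the pads, with a 95% interval from 2380 to 524000 that covers counting error only and rests on that 1 count. Wildtype MECs held it at 1.55 ± 0.845 CPM and wildtype fibroblasts at 0.289 ± 0.183 CPM (SD, n = 3), both more than any pad. The fitted log2 difference was -12.98 ± 0.46 (SE, edgeR adjusted p = 6.09e-07). It was -14.03 without pad 4, -14.08 with pads 1 to 3 alone and -11.92 with pads 4 to 6 alone.

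ENSRNOG00000010278 was far more abundant in adipocytes, at 528, 797 and 761 CPM. The pads held it at 0.28, 0.473 and 0.289 CPM (pads 1 to 3) and at 0, 0 and 0.137 CPM (pads 4 to 6), a mean of 0.196 ± 0.186 CPM (SD, n = 6) that rests on 43 counts in all. The ratio of the means was 3540 and the fitted log2 difference -12.26 ± 0.32 (SE, edgeR adjusted p = 2.07e-08). The fitted value was -14.13 without pad 6, -10.95 with pads 1 to 3 alone and -13.56 with pads 4 to 6 alone. Cultured cells lay between, with 19.1 ± 2.79 CPM in wildtype MECs and 44.5 ± 8.23 CPM in wildtype fibroblasts (SD, n = 3). For both identifiers the intact pad was the lowest of the 4 wildtype tissues.

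**Figure D4:**
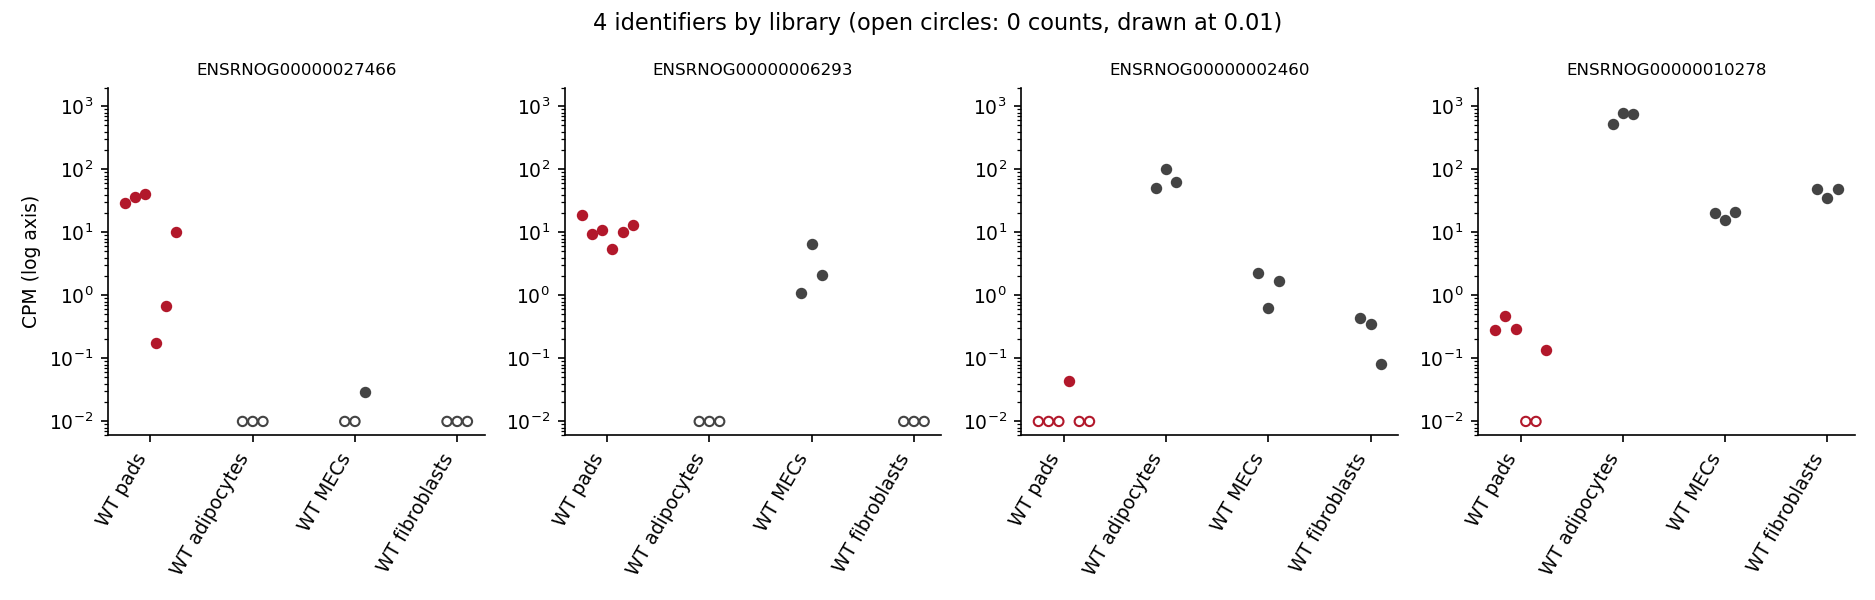
Levels of the 4 identifiers in each wildtype library of pads, adipocytes, MECs and fibroblasts, in CPM on a log axis. ENSRNOG00000027466 and ENSRNOG00000006293 have no count in the adipocytes, and ENSRNOG00000002460 and ENSRNOG00000010278 are lower in all 6 pads than in every isolated cell library.

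The 6 pads were less alike than the 3 adipocyte libraries. The median SD of log2 CPM over the genes tested was 0.262 among 6 pads, 0.125 within pads 1 to 3, 0.216 within pads 4 to 6 and 0.204 among adipocytes. Spearman correlations across genes, which are not independent replicates, were 0.942 to 0.994 between pads, 0.985 to 0.991 between adipocyte libraries and 0.82 to 0.87 between a pad and an adipocyte library. The number of genes at least 4-fold above the adipocyte mean was 2926, 2896 and 2977 in pads 1 to 3 and 2376, 2631 and 2735 in pads 4 to 6. By this count and by their larger adipocyte-set shares, pads 4 to 6 stood nearer to the adipocytes. Other measures set only pads 4 and 5 apart. The genes at least 4-fold below the adipocyte mean were 912, 874 and 844 in pads 1 to 3 and 791, 763 and 861 in pads 4 to 6. The median Spearman correlations to adipocytes were 0.829, 0.838 and 0.837, and 0.868, 0.859 and 0.84.

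Against adipocytes, the 2 sets of pads mostly differed the same way, and 1741 of all 15826 genes had opposite signs in them, among them 100 of the 765 genes of the adipocyte set. The median log2 difference from adipocytes over the 3017 genes was 3.23 in pads 1 to 3 and 2.84 in pads 4 to 6, and 5 of these genes, chosen for large differences, had opposite signs. Over the 814 genes it was -2.93 and -2.83, with 1 gene of opposite sign. The MEC set stood at 3.94 and 3.56, the adipocyte set at -1.91 and -1.67, the pad-only set at 4.40 and 4.11 and the cultured-cell set at -1.69 and -1.47. The fibroblast set went the other way, at 2.23 in pads 1 to 3 and 2.48 in pads 4 to 6. Of its 209 members, 144 were larger in pads 4 to 6, beside 6683 of all 15826 genes.

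Genes far higher in pads than in adipocytes more often varied widely among the pads. The highest of the 6 pads was at least 16-fold above the lowest for 211 (6.99%) of the 3017 genes, for 12 (1.47%) of the 814 and for 289 (1.83%) of all genes tested. Of the 211 genes, 191 were highest in 1 of pads 1 to 3, and in 173 all of pads 1 to 3 lay above all of pads 4 to 6, while 15 showed the reverse. The 289 genes as a whole leaned the same way. Of them 32, 76 and 136 were highest in pads 1, 2 and 3, and 11, 18 and 16 in pads 4, 5 and 6. The share of all genes tested that separated the 2 sets of pads is not given here. Of the 211 genes, 10 belonged to the MEC set, 2 to the fibroblast set and 4 to the pad-only set, beside 13.5%, 3.81% and 2.06% of the 3017 genes. ENSRNOG00000027466 above is an example of such a gene.

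The same comparison was made in the 3 mutated lines, whose libraries are separate from the wildtype ones. IFPS and PS have 6 pads and IF has 3, each against 3 adipocyte libraries. Of 15816 genes in IFPS, 11996 (75.8%) were called, 6656 (42.1%) were higher and 5340 (33.8%) lower in pads. In PS, of 15593 genes 11890 (76.3%) were called, 6440 (41.3%) were higher and 5450 (35%) lower. In IF, of 15145 genes 7617 (50.3%) were called, 3886 (25.7%) were higher and 3731 (24.6%) lower. At least 4-fold higher were 3415 genes (21.6%) in IFPS, 3278 (21%) in PS and 1139 (7.52%) in IF. At least 4-fold lower were 835 (5.28%), 885 (5.68%) and 826 (5.45%). The IF counts depended on single libraries, with 2520 genes higher without IF pad replicate 3.

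The genes with large differences recurred in PS and IFPS. Of the wildtype genes at least 4-fold higher that a line also tested, 2748 of 2926 (93.9%, and 83.5% of the IFPS list) were at least 4-fold higher in IFPS and 2675 of 2863 (93.4%, and 83.7% of the PS list) in PS. In IF it was 909 of 2618 (34.7%, and 80.4% of the IF list). Of the genes at least 4-fold lower, 703 of 801 (87.8%, and 85.4% of the IFPS list) recurred in IFPS, 714 of 789 (90.5%, and 81.8%) in PS and 549 of 767 (71.6%, and 70.2%) in IF. Of the higher genes, 0 were called at least 4-fold lower in IFPS and in PS, and 18 in IF.

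**Figure D5:**
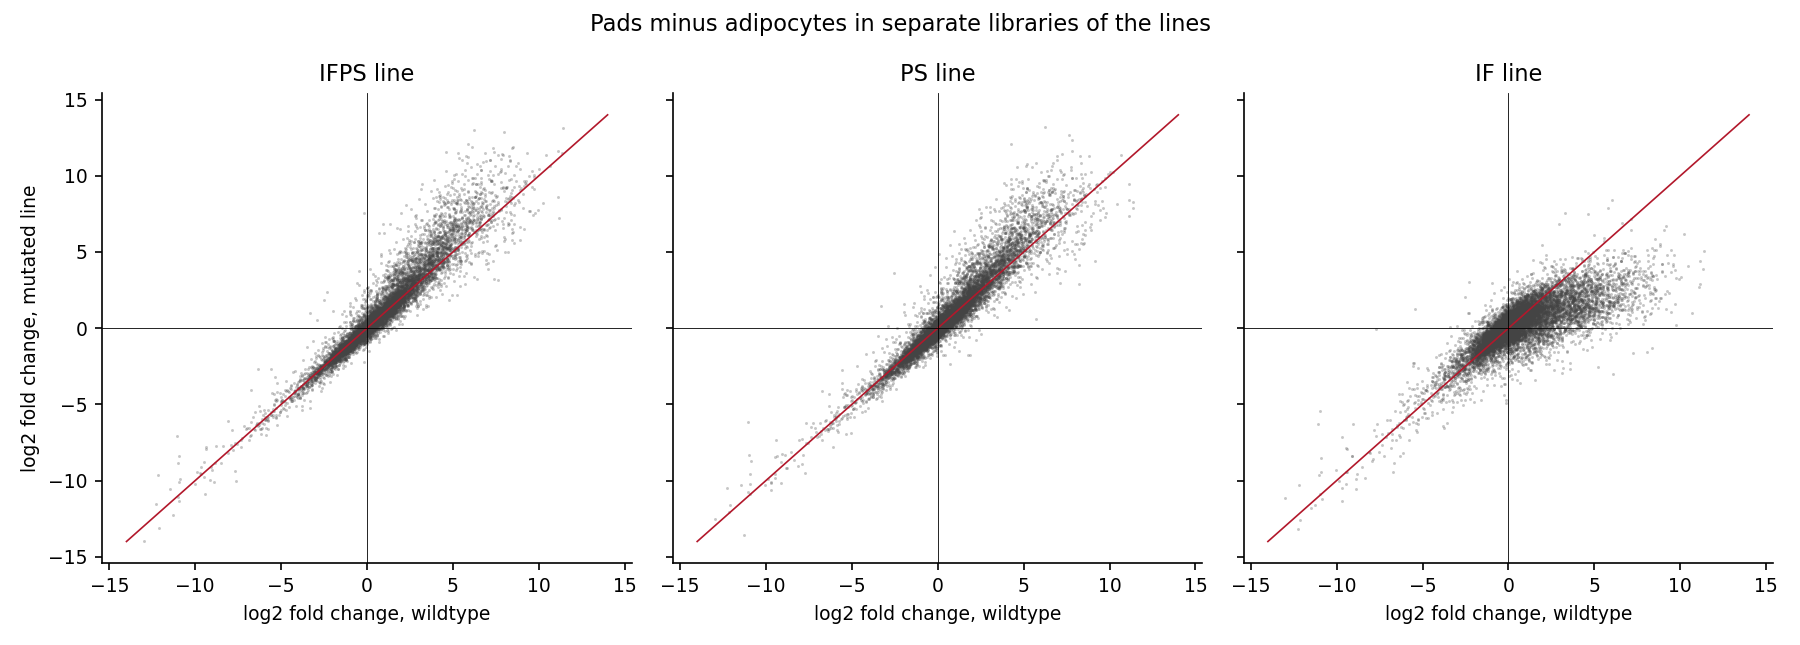
Log2 difference of pads against adipocytes in wildtype rats (horizontal axis) and in each mutated line (vertical axis), 1 point per gene tested in both, with the line of equal differences. IFPS and PS lie along that line, and in IF many genes that are higher in wildtype pads lie below it.

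Whether the pad-adipocyte difference itself depended on the line was tested as an interaction over 16684 genes. IFPS differed from wildtype in 184 genes (1.1%), 174 (1.04%) with a higher and 10 (0.0599%) with a lower pad-adipocyte difference. PS differed in 264 genes (1.58%), 233 (1.4%) with a higher and 31 (0.186%) with a lower one. With the paired title numbers of PS as a block the PS count was 252. Both counts rested on single libraries. For IFPS the count was 16 without IFPS adipocyte replicate 1, 33 without wildtype adipocyte replicate 3 and 35 without IFPS adipocyte replicate 3. The IFPS count was 102 without wildtype adipocyte replicate 2. It was 285 without IF adipocyte replicate 2, a library in the fit but outside that contrast, and why was not tested. For PS it was 80 without wildtype adipocyte replicate 3, 167 without replicate 2 and 448 without replicate 1. Without PS adipocyte replicates 1, 2 and 3 it was 153, 130 and 109, and without IF adipocyte replicate 2 it was 495.

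IF differed from wildtype in 5500 genes (33%), 3249 (19.5%) with a lower and 2251 (13.5%) with a higher pad-adipocyte difference, and between 4417 and 6778 genes with each library left out. Of the 3014 tested genes of the wildtype list of 3017, 1631 had a lower difference in IF and 9 a higher one, with a median change of -2.28 on the log2 scale, and since that list was chosen for large wildtype differences this is a description. The sets, which were not chosen on wildtype or IF libraries, moved with it. The MEC set had 419 of 523 members with a lower difference in IF (median change -3.03), the fibroblast set 132 of 212 (-1.77) and the pad-only set 41 of 64 (-3.27), beside 19.5% of all genes with a lower one. The adipocyte set had 80 of 765 members with a higher and 42 with a lower difference (median 0.36).

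The IF adipocyte libraries differed from the wildtype ones in the same genes. The MEC set took 1.753, 0.5195 and 1.541% of the counts of the 3 IF adipocyte libraries, against 0.2134 to 0.2825% in wildtype, and the fibroblast set 1.884, 1.344 and 1.84%, against 0.4627 to 0.5591%. The 3017 genes took 5.739, 3.082 and 5.343%, against 0.5904 to 0.7816%, while IF pads held them at 13.28 to 16.93% and wildtype pads at 13.34 to 17.73%. All 3 IF adipocyte libraries lay above all 3 wildtype ones in each of these shares, and IF replicate 2 was the nearest to them. Their part in the IF result was not tested.

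The 4 identifiers, chosen on wildtype libraries, had the same direction in each mutated line and passed the test there, with edgeR adjusted p-values up to 0.0456 (ENSRNOG00000027466 in IF). ENSRNOG00000027466 stood at 38.3 ± 32.6 CPM in IFPS pads, 21.5 ± 22 in PS pads and 19.9 ± 19.1 in IF pads, as uneven among pads as in wildtype. ENSRNOG00000006293 stood at 13.1 ± 4.3 CPM in IFPS pads and 16 ± 2.59 CPM in PS pads. In IF adipocytes it was measured at 1.44, 0.148 and 1.17 CPM, where wildtype adipocytes had no count, and the ratio of mean levels in pads to adipocytes was 14.3 in IF, against at least 269 in wildtype. ENSRNOG00000002460 averaged 69.7 ± 15.9, 57.4 ± 16.1 and 36.1 ± 22.2 CPM in IFPS, PS and IF adipocytes, with fitted log2 differences of -13.98, -12.49 and -11.17. For ENSRNOG00000010278 the means were 642 ± 146, 394 ± 85.2 and 1990 ± 161 CPM, so IF adipocytes held more of it than those of any other line.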

How the data were processed

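Per the labels' protocols, poly(A) libraries were read from both ends at 50 bp. The deposited values are raw counts, whole numbers of reads per Ensembl rat gene, which the authors made with Trim Galore, STAR 2.5.2b and the build Rnor_6.0, per the submitters' processing notes. The counting tool and its use of strand are not given in the sources used here, so genes that overlap or have near-identical copies are uncertain.

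Counts were used as deposited. The main fit, made in R 4.3.3 with edgeR 4.0.16 and its quasi-likelihood test, held the 9 wildtype libraries, with TMM factors, filterByExpr, the pad set as a factor and Benjamini-Hochberg adjustment (threshold 0.05). The contrast was the mean of both pad sets minus adipocytes. Levels are CPM with TMM factors. Each line had its own fit of this kind, and line dependence came from 1 fit of pads and adipocytes of all 4 lines.

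Counts were simulated for this comparison with 15826 genes, of which 200 were changed, as many up as down. On them edgeR recovered 55% of 2-fold and 89% of 4-fold changes, and 4.64% of its calls were false. DESeq2 1.42.0 recovered 71% and 93%, with 24.8% false. The real comparison called far more genes, with unequal numbers at 4-fold in the 2 directions, so these rates are not its error rates.

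No pair of libraries of 1 group agreed within sampling noise (smallest chi-square per degree of freedom 23.5, over genes with at least 20 counts). Same-numbered pads and adipocytes correlated in their deviations at 0.108, 0.12 and 0.141 in PS, which counts as paired, and at 0.013, 0.0728 and -0.0381 in wildtype, which does not. In IFPS the values were similar to those of PS, at 0.0811, 0.136 and 0.126, each above the best other number (0.018, -0.0666 and -0.0176). In IF they were 0.0303, below the best other number (0.128), 0.0885 and 0.0982.

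The comparison, its rules and the gene sets were chosen with earlier results of these data known, and the sets only after it was clear that 0 of 32883 identifiers matched a gene symbol of the 47357 in the GRCr8 table. The 31 planned gene lists are therefore not reported. Without symbols, the naming rule allowed 2 identifiers in each direction: the largest fitted differences among called genes without overlap of the groups at 10 CPM or more in the higher group. Alternatives were other size factors, library totals, no filter, DESeq2, no pad set factor, 1 pad set, wider fits, a replicate block and leaving out each library. Thinned counts, sets at 8-fold, lines with the same title numbers and no block, and a block for PS in the fit of line dependence were added after the data were seen.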

Additional observations from a re-analysis of the deposited data

Results flagged for a closer look

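In 18 measures of the 6 wildtype pads, among them depth, set shares and the 4 identifiers, 1 pad stood far from the others. ENSRNOG00000002460 was at 0.0445 CPM in wildtype pad 4 and at 0 in the other 5 pads, which is 1 count. A single count beside pads that are all at 0 always meets the rule. Its chance rate of about 1 case in 20 groups therefore does not hold for this value.

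Effects that differed between lines were found by the interaction test of edgeR. The pad-adipocyte difference depended on the line for 184 genes in IFPS, 264 in PS and 5500 in IF. For ENSRNOG00000006293 the difference in IF minus that in wildtype was -7.45 ± 1.47 on the log2 scale (SE, adjusted p = 0.000498). Wildtype adipocytes had no count of this gene, so the fitted size has no firm value. By mean levels pads were 14.3-fold above adipocytes in IF and at least 269-fold in wildtype.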

How the results depend on the processing

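With library totals as the only scaling, 2872 genes were lower in wildtype pads in place of 5411. No other setting that kept all groups moved a count of wildtype calls by more than 1.5 times: size factors of the DESeq2 type, no filter, DESeq2 (12033 genes called), no pad set factor (11090), pads 1 to 3 alone (11797), pads 4 to 6 alone (9615), wider fits (12295 and 12749) and thinned counts (11618). Each kept 3181 or more of the 3831 calls at 4-fold. ENSRNOG00000027466 has no value against pads 4 to 6 alone, where it failed the filter. Sets defined at 8-fold were smaller, with 82 of 105 fibroblast-set members higher (78.1%), 329 of 475 adipocyte-set members lower (69.3%) and 42 of 63 cultured-cell members lower (66.7%).

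In pads and adipocytes with the same title numbers, which leaves out the second set of pads, the fit with a replicate block gave 6051 genes higher and 5290 lower in wildtype pads 1 to 3, 6186 and 5215 in IFPS, 5347 and 4811 in PS and 3522 and 3470 in IF. On the same libraries without the block the counts were 6273 and 5524 in wildtype, 6314 and 5320 in IFPS and 5490 and 4911 in PS. For IF the fit without the block is the one reported. No count moved by more than 1.5 times. A block on the title numbers of PS alone gave line dependence in 173 genes in IFPS, 252 in PS and 5437 in IF.

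With each library left out in turn, wildtype pads had 5993 to 6528 genes higher and 5112 to 5778 lower, 2921 to 3140 at least 4-fold higher and 783 to 881 lower. IF had 2520 to 4376 higher and 2785 to 4186 lower. Line dependence ranged from 16 to 285 genes in IFPS, from 80 to 495 in PS and from 4417 to 6778 in IF. The cause was not tested. Genes near 1 count per library are limited by depth.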
